A study of Saccharomyces cerevisiae with 32 samples.

Results

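The retrograde response and citrate cycle genes described here are 10 budding yeast genes among the 5446 reading frames of the deposited tables, and all 10 are among the 5331 frames present in every table. They were chosen by open reading frame identifier, with the footprint, mRNA and translational efficiency values of these same tables known, so their values are given as a description. By role they fall into 3 targets of the retrograde response (CIT2, YCR005C; DLD3, YEL071W; PDH1, YPR002W), 4 citrate cycle enzymes (CIT1, YNR001C; ACO1, YLR304C; IDH1, YNL037C; IDH2, YOR136W) and 3 regulators (RTG1, YOL067C; RTG2, YGL252C; RTG3, YBL103C). No member overlaps another gene in the reference annotation.

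The retrograde response carries information on the state of mitochondria to the nucleus of yeast cells. When respiration is impaired or glutamate is scarce, the cytoplasmic protein Rtg2 releases the paired transcription factors Rtg1 and Rtg3, which enter the nucleus and switch on genes that keep up the supply of 2-oxoglutarate for glutamate synthesis. CIT2 encodes the peroxisomal citrate synthase and is the classical target, and DLD3 encodes a cytosolic D-lactate dehydrogenase that also acts on 2-hydroxyglutarate. PDH1 encodes a mitochondrial protein related to 2-methylcitrate dehydratases of propionate metabolism. CIT1, the mitochondrial citrate synthase, ACO1, the aconitase, and IDH1 and IDH2, the subunits of NAD-dependent isocitrate dehydrogenase, carry out the first steps of the citrate cycle, and their transcription is known to pass to Rtg control in cells with poor respiration.

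Ribosome footprints (RNase I) and mRNA were sequenced from 8 strains, of which 2 are WT and 6 are altered in DED1 or DBP1. These genes encode related DEAD-box RNA helicases, with Ded1 known to act in translation initiation. Cells were grown in SC medium with plasmid selection to an OD600 near 0.7, shifted in temperature and given cycloheximide at 100 µg/ml for 2 min. At 15 °C the strains were DED1-CS WT (NSY52), its cold-sensitive partner ded1-cs (NSY54) and ded1-cs_hcDBP1 (NSY56), which carries DBP1 in high copy. At 37 °C they were DED1-TS WT (NSY67), ded1-ts (NSY71) and ded1-ts_hcDBP1 (NSY73), and, in a separate experiment, dbp1delta (NSY14) and the double mutant ded1-ts dbp1delta (NSY15). The 32 libraries comprise 16 of footprints and 16 of mRNA, with 2 for each strain and assay, and the labels do not say whether these came from separate cultures.

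Each deposited value is a pool over the libraries of 1 strain in 1 assay, so no spread between replicates can be computed and no test was run. In bulk cultures, fewer cells with a transcript and less of it per cell cannot be told apart. A log2 change of 1 is a 2-fold difference, and genes with a change of at least that size are counted as higher or lower, provided that their level averaged at least 50 in both assays. Translational efficiency is the footprint change minus the mRNA change. The deposited levels summed to between 5651054 and 48359134 per column, and read depth is unknown. The strains' own genes stood apart: the authors' deposited tables have DBP1 footprints at -6.89 in dbp1delta, at 5.41 in ded1-cs_hcDBP1 and at 4.66 in ded1-ts_hcDBP1. DED1 footprints stood at 2.72 in ded1-cs, -0.99 in ded1-ts and -1.46 in dbp1delta per the authors' deposited tables. The dbp1delta strain thus differed from its WT in DED1 as well, with DED1 mRNA at -2.63 per the authors' deposited table, and the part of this difference in the members' values was not tested.

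**Figure D1:**
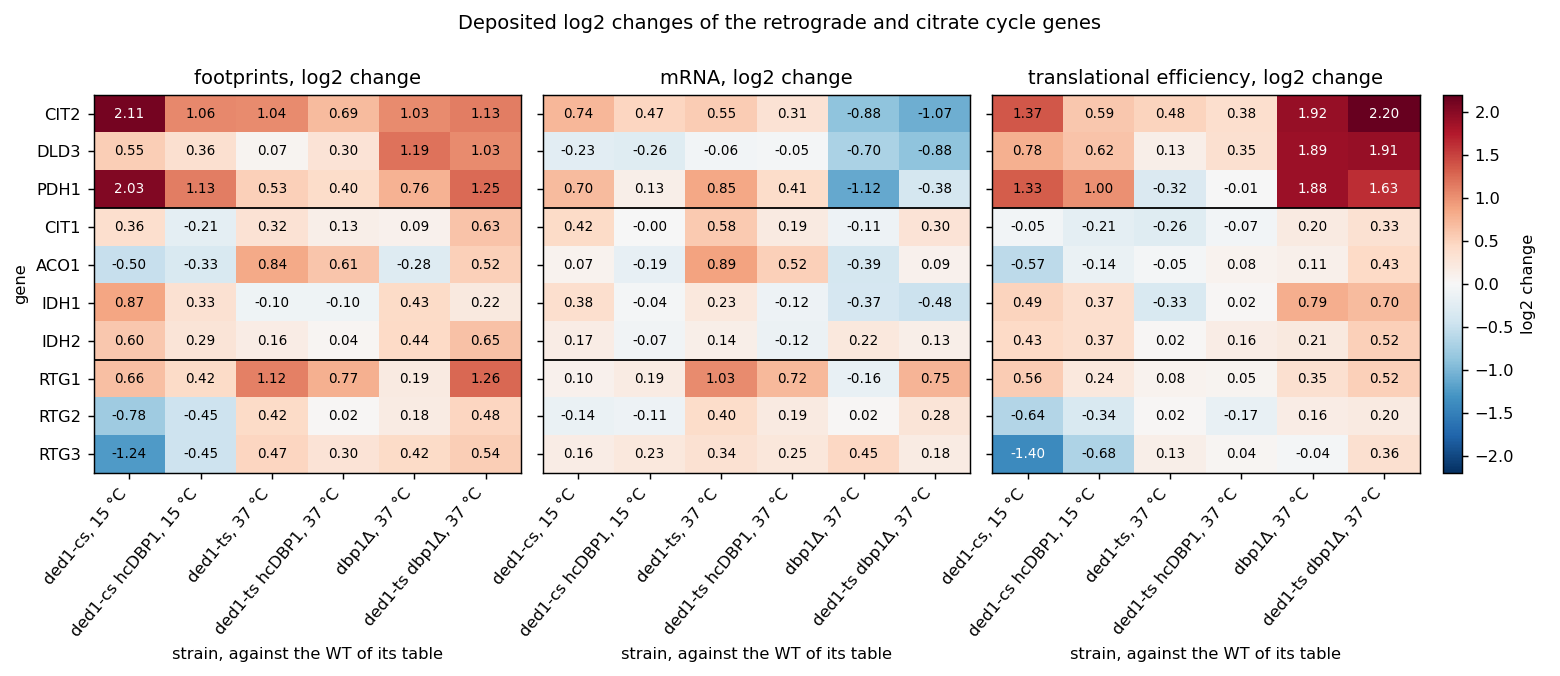
Deposited log2 changes of the 10 genes (rows, in order of role) in footprints, mRNA and translational efficiency, in 6 strains (columns), each against the WT of its table. CIT2 and PDH1 have the highest footprint values in ded1-cs, 2.11 and 2.03, and the 3 targets have the highest translational efficiencies in dbp1delta and the double mutant, between 1.63 and 2.20.

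Setting ded1-cs against DED1-CS addresses the effect of impaired Ded1 on translation in the cold. Of the members, CIT2 and PDH1 stood about 4-fold higher in footprints, and RTG3, the larger of the paired transcription factors, stood lower. The deposited log2 footprint level of CIT2 was 11.92 in DED1-CS and 14.0 in ded1-cs, and its mRNA level was 12.3 and 13.0. For PDH1 the deposited footprint level was 7.75 and 9.8 in those strains, and the mRNA level 7.8 and 8.5. Both genes were thus higher in ded1-cs in both assays, with the larger difference in footprints. In the authors' deposited table CIT2 stood at 2.11 in footprints and 0.74 in mRNA, a translational efficiency of 1.37. PDH1 stood at 2.03, 0.70 and 1.33 in the same order per the authors' deposited table. Among the 5096 genes compared, CIT2 ranked 41 and PDH1 50 from the top in footprints, but 270 and 303 in translational efficiency. DLD3 did not share the footprint values of the other targets, with 0.55 in footprints, -0.23 in mRNA and 0.78 in translational efficiency per the authors' deposited table.

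Of the citrate cycle enzymes in ded1-cs, IDH1 and IDH2 had footprints at 0.87 and 0.60 per the authors' deposited table, CIT1 at 0.36 and ACO1 at -0.50. Their mRNA stood between 0.07 for ACO1 and 0.42 for CIT1 per the authors' deposited table, and none of the 4 passed 2-fold in either assay. The regulators were split. RTG1 footprints stood at 0.66, RTG2 at -0.78 and RTG3 at -1.24 per the authors' deposited table, while their mRNA stayed between -0.14 and 0.16. RTG3 therefore had a translational efficiency of -1.40 per the authors' deposited table, at percentile 14.0 of all genes, so lower values were common in this strain.

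Past 2-fold in footprints were 2 members higher (CIT2 and PDH1) and 1 lower (RTG3), where 14.1% of all genes stood higher and 20.2% lower. For translational efficiency the same genes passed, 2 higher and 1 lower, against 16.5% and 21.9% of all genes. In mRNA 0 of 10 passed, against 2.24% of all genes in either direction. The median of the members was 0.57 in footprints and 0.46 in translational efficiency, against 0.10 and 0.10 for all genes. With equal column totals each translational efficiency shifts by -0.59 and each footprint change by -0.53. CIT2 and PDH1 then have translational efficiencies of 0.77 and 0.74, below 2-fold, while ACO1 at -1.17 and RTG2 at -1.23 join RTG3 past 2-fold lower, so the count becomes 0 higher and 3 lower. CIT1 footprints and the translational efficiencies of IDH1, IDH2 and RTG1 turn below 0, whereas CIT2 and PDH1 still pass in footprints.

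With hcDBP1 at 15 °C, CIT2 and PDH1 lay between the mutant and DED1-CS, and RTG3 did likewise from below. Fewer genes of the whole set were past 2-fold from DED1-CS in footprints with hcDBP1. In ded1-cs 719 of 5096 genes were higher and 1028 lower, and in ded1-cs_hcDBP1 305 of 5089 were higher and 560 lower. The deposited log2 footprint level of CIT2 was 12.9 in ded1-cs_hcDBP1, between 11.92 and 14.0, and that of PDH1 was 8.8. RTG3 had deposited footprint levels of 9.23 in DED1-CS, 8.0 in ded1-cs and 8.7 with hcDBP1, with mRNA levels of 10.1, 10.2 and 10.2. Its mRNA level therefore hardly differed between the 3 strains while its footprint level did. By difference of the deposited changes, hcDBP1 minus ded1-cs was -1.05 for CIT2 footprints, -0.90 for PDH1, -0.58 for CIT1, -0.54 for IDH1 and 0.79 for RTG3. The mRNA of these genes stood at -0.26 for CIT2, -0.57 for PDH1, -0.42 for CIT1, -0.41 for IDH1 and 0.07 for RTG3. In translational efficiency CIT2 stood at -0.78, the rank of 30 from the bottom of 5096 genes, and RTG3 at 0.72, while the 4 enzymes lay between -0.16 and 0.43.

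Between the strains with and without hcDBP1 at 15 °C, 1 member (CIT2) was past 2-fold lower in footprints, against 0.903% of all genes. In mRNA 0 of 10 passed, against 0.373%, and in translational efficiency 0 of 10, against 2.49%. The CIT2 footprint value lies close to the threshold, at -0.93 with equal column totals and -0.99 from the rounded level columns. Against DED1-CS, the hcDBP1 strain still had CIT2 footprints at 1.06 and PDH1 at 1.13 per the authors' deposited table. These were 2 members past 2-fold higher, against 5.99% of all genes, and with equal column totals they stand at 0.65 and 0.72, below 2-fold. In that comparison 0 members passed in mRNA (1.47% of all genes) and 0 in translational efficiency (22.5%), although PDH1 stood just under the threshold at 0.998 per the authors' deposited table. Both comparisons use the libraries of the hcDBP1 strain, and both mutant strains were set against the same DED1-CS libraries, so their values are given side by side.

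**Figure D2:**
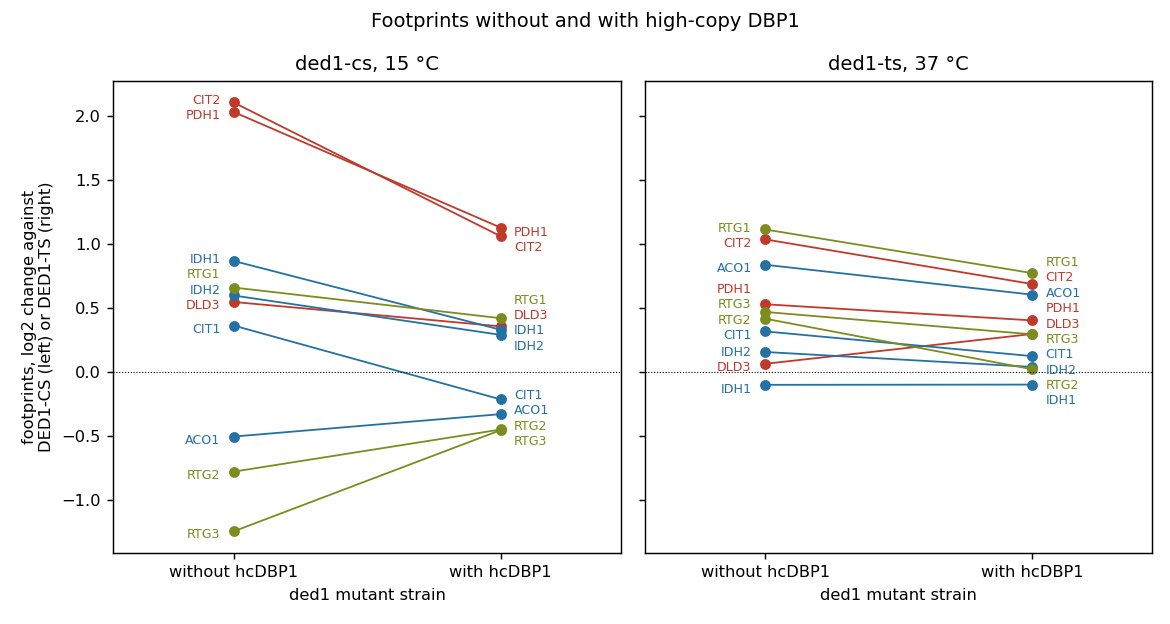
Log2 footprint change of each gene against DED1-CS (left, 15 °C) or DED1-TS (right, 37 °C), in the ded1 mutant without and with hcDBP1, each point 1 gene and each line joining its values. At 15 °C the values of CIT2 and PDH1 go from 2.11 and 2.03 to 1.06 and 1.13 and that of RTG3 from -1.24 to -0.45, and at 37 °C the lines are flatter.

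Setting ded1-ts against DED1-TS addresses the same at 37 °C. CIT2 and RTG1, the smaller of the paired transcription factors, were the members past 2-fold in footprints, and in RTG1 the mRNA differed as much. The deposited log2 levels of CIT2 were 12.05 in DED1-TS and 13.09 in ded1-ts for footprints and 13.7 and 14.2 for mRNA. For RTG1 they were 8.97 and 10.1 for footprints and 8.6 and 9.6 for mRNA. Each gene was higher in ded1-ts in both assays. CIT2 stood at 1.04 in footprints and 0.55 in mRNA per the authors' deposited table, with a translational efficiency of 0.48, and RTG1 at 1.12, 1.03 and 0.08. PDH1 differed from CIT2 here, with 0.53 in footprints and 0.85 in mRNA per the authors' deposited table, so that its translational efficiency was -0.32. DLD3 stood at 0.07 in footprints and -0.06 in mRNA per the authors' deposited table.

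Of the enzymes at 37 °C, ACO1 stood highest, at 0.84 in footprints and 0.89 in mRNA per the authors' deposited table, followed in mRNA by CIT1 at 0.58. IDH1 and IDH2, whose products form 1 enzyme, stood at 0.23 and 0.14 in mRNA and at -0.10 and 0.16 in footprints per the authors' deposited table. RTG2 and RTG3 stood at 0.42 and 0.47 in footprints and 0.40 and 0.34 in mRNA per the authors' deposited table. All 10 translational efficiencies lay between -0.33 and 0.48. Past 2-fold were 2 members higher in footprints, against 6.86% of all genes, 1 higher in mRNA (RTG1), against 4.2%, and 0 in translational efficiency, against 9.38% in either direction. With equal column totals, which shift mRNA changes by 0.20, PDH1 and ACO1 also pass in mRNA, at 1.05 and 1.09.

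With hcDBP1 at 37 °C no member was past 2-fold from either DED1-TS or ded1-ts. Against DED1-TS, RTG1 footprints stood at 0.77, CIT2 at 0.69 and ACO1 at 0.61 per the authors' deposited table, and 0 of 10 passed where 2.99% of all genes did. In mRNA 0 of 10 passed against 2.34% of all genes, and in translational efficiency 0 of 10 against 3.87%. By difference of the deposited changes, hcDBP1 minus ded1-ts was -0.35 for CIT2 footprints, -0.34 for RTG1, -0.40 for RTG2 and -0.13 for PDH1. In mRNA PDH1 stood at -0.44 and CIT1 at -0.39, and DLD3 alone was not below 0, at 0.01, a sign that turns with equal column totals. Past 2-fold were 0 of 10 members in footprints, mRNA and translational efficiency, against 2.95%, 1.01% and 1.67% of all genes.

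No library is common to the experiments at 15 °C and 37 °C, so the effects can be subtracted, although the difference was not tested. The effect of ded1-ts minus that of ded1-cs was -1.66 for the translational efficiency of PDH1, at percentile 0.806 of 5089 genes. For CIT2 it was -0.88, at percentile 13.2, and for RTG3 1.53, at percentile 94.0. The difference for RTG3 came with footprints at 1.71 and mRNA at 0.18. The hcDBP1 effect on footprints in ded1-ts at 37 °C minus that in ded1-cs at 15 °C was 0.70 for CIT2, 0.78 for PDH1 and -0.97 for RTG3. These lay at percentiles 93.9, 95.4 and 4.36.

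The dbp1delta strain at 37 °C lacks DBP1 and also had DED1 mRNA at -2.63 per the authors' deposited table. Both helicase genes thus differed from the WT, and the part of each was not tested. In this strain the 3 retrograde targets stood out together. Their footprints were higher and their mRNA lower than in the WT of that table. In the authors' deposited table CIT2 stood at 1.03 in footprints and -0.88 in mRNA, DLD3 at 1.19 and -0.70, and PDH1 at 0.76 and -1.12. Their translational efficiencies were nearly equal, at 1.92, 1.89 and 1.88 per the authors' deposited table, and ranked 2, 4 and 5 among 4962 genes. The genes interleaved with them per the authors' deposited table were SAG1, the alpha agglutinin of mating, at 2.53 in rank 1 and FIT3, a cell wall mannoprotein of iron uptake, at 1.90 in rank 3, and the next, AQR1, a multidrug transporter, stood at 1.27.

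Opposite signs of this size were rare in dbp1delta. Footprints at or above 0.5 with mRNA at or below -0.5 were found in 4 of the 4962 genes above the level minimum of 50. These limits were chosen after the values were seen. Of the 4 genes, 3 are the targets and the other is the ribosomal protein gene RPL22B. CRC1 also met both limits, at 0.81 in footprints and -0.52 in mRNA per the authors' deposited table, but lay below that minimum. GDH3, a glutamate dehydrogenase gene, lay just outside these limits, at 0.4997 in footprints and -0.53 in mRNA per the authors' deposited table. OAZ1 at 0.43 and -0.78 and YCT1 at 0.51 and -0.44 in the same order were also near them per the authors' deposited table. The reverse pattern was found in 6 genes, with 0 members among them. SAG1 and FIT3 had mRNA at 0.70 and 0.69 per the authors' deposited table, so their high translational efficiency came without lower mRNA. The deposited log2 levels in dbp1delta were 11.87 for CIT2 footprints and 12.69 for mRNA, 12.83 and 12.23 for DLD3, and 6.97 and 6.70 for PDH1. PDH1 drops out under a level minimum of 200. The level columns of that table's WT were not used here.

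**Figure D3:**
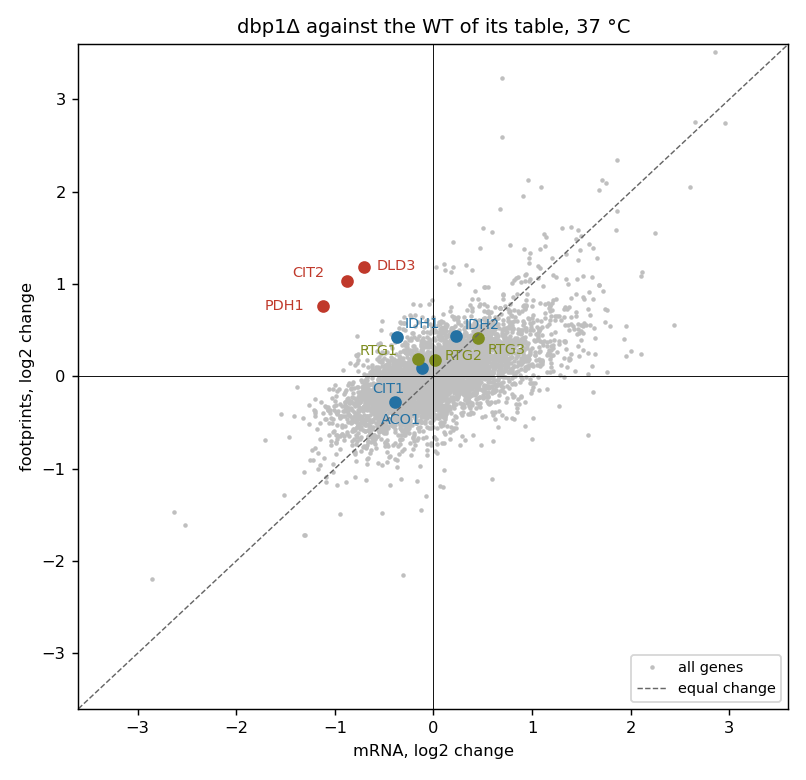
Log2 change of mRNA (x axis) and footprints (y axis) in dbp1delta against the WT of its table, 37 °C, each grey point 1 gene and the coloured points the 10 named genes (red targets, blue enzymes, green regulators), with the dashed line marking equal change and DBP1 and 2 other genes outside the range not drawn. CIT2, DLD3 and PDH1 lie at footprint values of 1.03, 1.19 and 0.76 and mRNA values of -0.88, -0.70 and -1.12, left of and above the main cloud.

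The citrate cycle enzymes in dbp1delta showed less of that pattern. IDH1 came nearest, with 0.43 in footprints, -0.37 in mRNA and 0.79 in translational efficiency per the authors' deposited table, at percentile 98.5 of all genes. Its partner IDH2 stood at 0.44 in footprints but 0.22 in mRNA per the authors' deposited table, and CIT1 at 0.09 and -0.11. ACO1 was lower in both assays, at -0.28 and -0.39 per the authors' deposited table. The regulators RTG1, RTG2 and RTG3 stood at 0.19, 0.18 and 0.42 in footprints and at -0.16, 0.02 and 0.45 in mRNA per the authors' deposited table, so none was past 2-fold.

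In all, 2 members (CIT2 and DLD3) were past 2-fold higher in footprints in dbp1delta, against 1.49% of all genes. In mRNA 1 member (PDH1) was past 2-fold lower, against 1.25%, and in translational efficiency 3 were higher, against 0.443%. Since the members were chosen with these values known, the counts are not read against the background. The median translational efficiency of the members was 0.28, against -0.01 for all genes.

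The double mutant ded1-ts dbp1delta showed the same signs in the 3 targets against the WT of its table, with PDH1 mRNA the closest to 0. In the authors' deposited table CIT2 stood at 1.13 in footprints and -1.07 in mRNA, DLD3 at 1.03 and -0.88, and PDH1 at 1.25 and -0.38. Their translational efficiencies of 2.20, 1.91 and 1.63 per the authors' deposited table ranked 8, 14 and 28 of 5008 genes. RTG1 footprints stood at 1.26 and mRNA at 0.75 per the authors' deposited table. The other 6 members had footprints between 0.22 for IDH1 and 0.65 for IDH2 and mRNA between -0.48 for IDH1 and 0.30 for CIT1 per the authors' deposited table. Past 2-fold were 4 members higher in footprints (9.78% of all genes), 1 lower in mRNA (CIT2, 4.65% of all genes) and 3 higher in translational efficiency (2.94% of all genes). Footprints at or above 0.5 with mRNA at or below -0.5 were found in 7 genes, of which 2 are CIT2 and DLD3, and the reverse in 179.

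The tables of dbp1delta and the double mutant are both against a WT of that experiment, assumed and not checked to be the same, so high values in both are not separate observations. DED1 mRNA stood at -0.95 in the double mutant and at -2.63 in dbp1delta per the authors' deposited tables. What this adds to the difference between these strains was not tested. By difference of the deposited changes, the double mutant minus dbp1delta had target translational efficiencies of 0.28 for CIT2, 0.02 for DLD3 and -0.26 for PDH1. Their footprints stood at 0.09, -0.16 and 0.49 in this difference and their mRNA at -0.19, -0.18 and 0.74, so the double mutant lay close to dbp1delta for CIT2 and DLD3. RTG1 stood at 1.07 in footprints and 0.91 in mRNA, and ACO1 at 0.80 and 0.48. RTG1, PDH1 and ACO1 thus had the highest mRNA values of the members in this difference. In ded1-ts, which shares no library with it, the highest mRNA values were also those of RTG1, ACO1 and PDH1, at 1.03, 0.89 and 0.85 per the authors' deposited table. The members were chosen with these values known, so the match is a description and was not tested. Past 2-fold in the double mutant against dbp1delta was 1 member in footprints (RTG1), against 7.48% of all genes higher. RTG1 stands at 0.96 when the level columns of these strains are brought to equal totals. In mRNA 0 of 10 passed, against 7.5%, and in translational efficiency 0 of 10, against 10.7%.

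**Figure D4:**
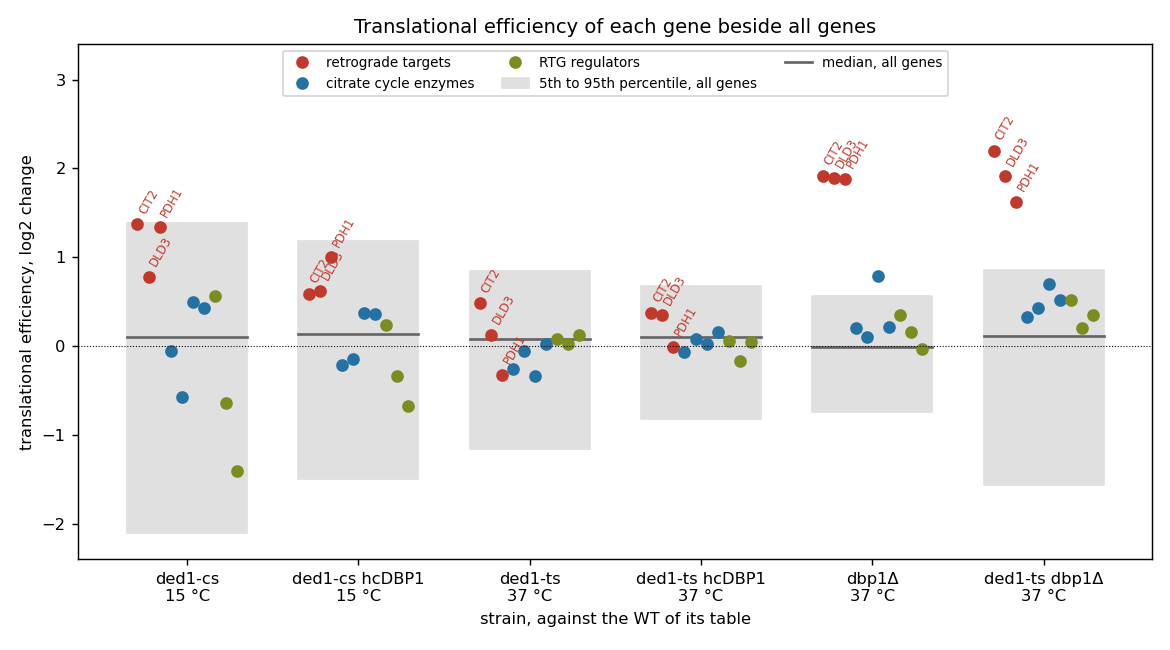
Log2 change in translational efficiency of each of the 10 genes (points, coloured by role, targets named) in 6 strains against the WT of their tables, with the grey bar from percentile 5 to 95 and the line at the median of all genes. The 3 targets lie above the bar in dbp1delta, at 1.88 to 1.92, and in the double mutant, at 1.63 to 2.20, and inside it in the other 4 strains, and IDH1 lies above it in dbp1delta at 0.79.

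The footprint to mRNA ratio of a gene within a strain does not depend on a WT, and here it is given as log2 minus the median of all genes in that strain. Tables were scaled separately by the authors. Levels are rounded to 1 decimal in both assays of the 15 °C mutants. The mRNA levels of DED1-CS, DED1-TS, ded1-ts and ded1-ts_hcDBP1 are rounded likewise. CIT2 stood below the median in 6 of the 8 strains, the exceptions being ded1-cs and ded1-cs_hcDBP1. Its ratio was -0.40 in DED1-CS, 1.0 in ded1-cs and 0.2 with hcDBP1 at 15 °C, and -1.71 in DED1-TS, -1.17 in ded1-ts and -1.32 with hcDBP1 at 37 °C. In dbp1delta and the double mutant, in which CIT2 had its highest translational efficiency changes, the ratio was -0.87 and -0.61, at percentiles 15.7 and 28.4 of all genes. In DED1-TS it was at percentile 4.68.

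ACO1 stood at the other end, with a ratio between 1.1 in ded1-cs and 1.8 in the double mutant, above the median in all 8 strains. The other citrate cycle enzymes were also above the median in each strain, CIT1 between 0.06 and 0.64, IDH1 between 0.28 and 1.8 and IDH2 between 0.57 and 1.3. DLD3 lay between 0.14 and 1.0, and PDH1 between -0.57 in ded1-ts and 1.3 in ded1-cs. RTG3 was below the median throughout, from -2.2 in ded1-cs to -0.22 in the double mutant, whereas RTG1 and RTG2 stood near or below it at 15 °C and between -0.07 and 0.43 at 37 °C.

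**Figure D5:**
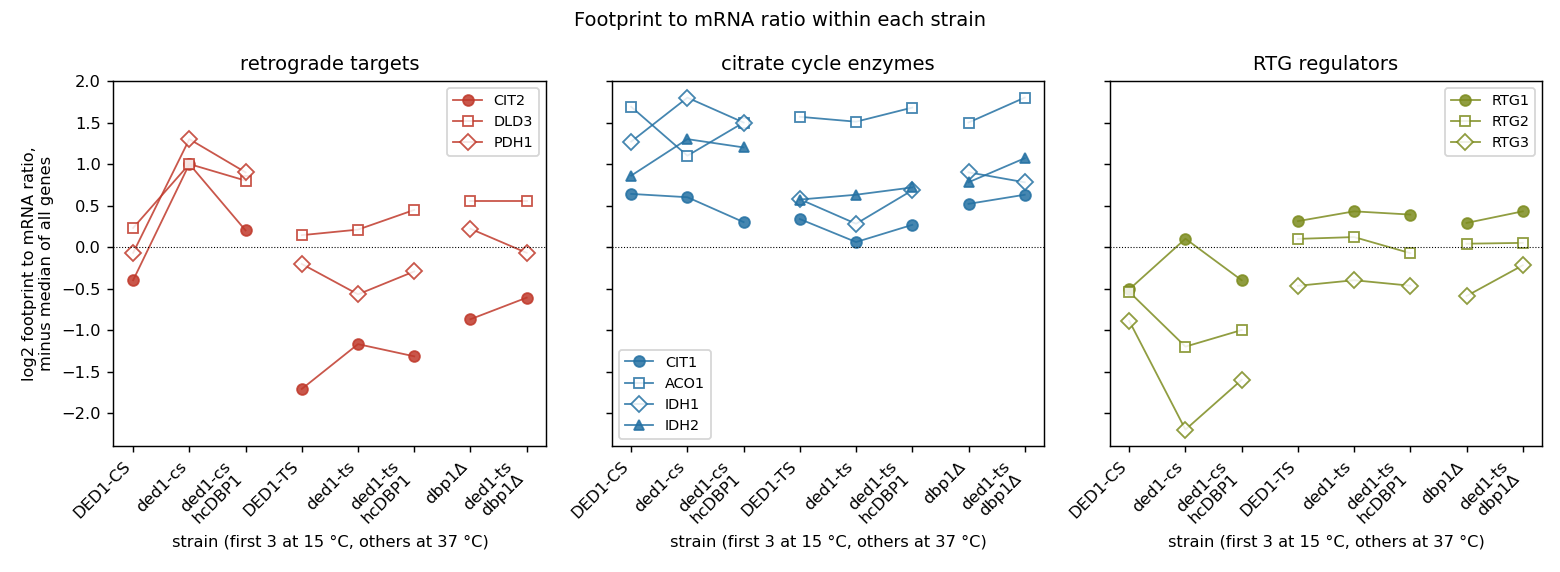
Log2 footprint to mRNA ratio minus the median of all genes (y axis) by strain (x axis), with 1 panel for each role, a line for each gene and a break between experiments. CIT2 goes from -0.40 to 1.0 between DED1-CS and ded1-cs and is lowest in DED1-TS at -1.71, and RTG3 goes from -0.89 to -2.2 at 15 °C.

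The gene whose changes were most like those of CIT2 was PDH1. Over the 12 deposited footprint and mRNA changes of the 6 strains, the Euclidean distance to CIT2 was 1.09 for PDH1, the smallest of 5172 genes. PET122, a translational activator in mitochondria, followed at 1.68, then PML39, MIY2 and KTR2 at 1.71, 1.72 and 1.75. These 4 shared the high footprints in ded1-cs, at 1.30 to 1.74, but their translational efficiencies in dbp1delta were 0.52 to 0.93 per the authors' deposited table, below the 1.92 of CIT2. The other members ranked 193 for DLD3, 255 for IDH1, 546 for RTG1, 631 for IDH2, 983 for CIT1, 2287 for ACO1, 2970 for RTG2 and 3371 for RTG3. By Pearson correlation over the same 12 changes the 4 most alike genes were MSI1, YAF9, NBP35 and PML1, with PDH1 in rank 5 and IDH1 in rank 22. The changes share controls and libraries, and the ranks are a description.

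The rest of the pathway was read from 8 lists of 54 genes, chosen with results of these data known. In ded1-cs, the other citrate cycle enzymes were split in translational efficiency, 3 of 15 higher and 5 lower, with a median of -0.22 against 0.10 for all genes. These list counts stand beside 16.5% of all genes higher and 21.9% lower in this strain, and with so few genes in a list nothing is read from them. The succinyl-CoA ligase subunits LSC1 and LSC2 stood at -2.72 and -1.83 per the authors' deposited table. Of the pyruvate dehydrogenase and carboxylase genes 3 of 6 were lower and 0 higher, with PDB1, the E1 beta subunit, at -2.32 and PYC2, a pyruvate carboxylase, at -1.67 per the authors' deposited table. Of the retrograde signalling regulators, 2 of 7 were lower and 1 higher. GRR1, of the ubiquitin ligase that acts on Mks1, stood at -2.32 and MKS1, the inhibitor of the pathway, at -1.76 per the authors' deposited table. BMH1, a 14-3-3 protein, was the higher one, at 1.19 per the authors' deposited table.

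Among the Hap genes, which encode the activator of respiration genes, 1 of 4 was lower, HAP2 at -1.67 per the authors' deposited table. HAP4 stood at -0.76 there with mRNA at 1.81. Of the mitochondrial carboxylate carriers 2 of 5 were lower, DIC1 at -2.01 and YHM2 at -1.26 per the authors' deposited table. GDH1, the NADP-dependent glutamate dehydrogenase, at 1.17 was the 1 of 5 glutamate genes that was higher, and DLD2, a mitochondrial D-lactate dehydrogenase, at 1.35 the 1 of 3 other lactate dehydrogenase genes, both per the authors' deposited table. Of 6 glyoxylate and methylcitrate cycle genes, 0 passed in either direction.

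In ded1-ts the lists held fewer genes past 2-fold in translational efficiency, as did the genome. Of the 5235 genes compared, 6.4% were lower and 156 were higher. KGD1, of the 2-oxoglutarate dehydrogenase complex, was the 1 of 15 other citrate cycle enzymes that was lower, at -1.39 per the authors' deposited table. GRR1 stood at -2.03, PYC2 at -1.78 and GLT1, the glutamate synthase, at -1.40 per the authors' deposited table, each the only gene of its list below the threshold. Of 7 glyoxylate and methylcitrate cycle genes 1 was higher in translational efficiency, the cytosolic isocitrate dehydrogenase IDP2 at 1.67 per the authors' deposited table. In footprints 3 of the 7 were higher, against 6.86% of all genes, among them IDP2 at 1.88 and the peroxisomal isocitrate dehydrogenase IDP3 at 1.57 per the authors' deposited table. The Hap, lactate dehydrogenase and carrier lists had 0 genes past 2-fold in translational efficiency.

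In dbp1delta few list genes passed 2-fold in translational efficiency. Of 14 other citrate cycle enzymes 0 were higher in translational efficiency and 1 lower, against 1.81% of all genes, the succinate dehydrogenase subunit SDH1 at -1.25 per the authors' deposited table. HAP4 stood at -1.25 with mRNA at 1.47 per the authors' deposited table, and GDH3 at 1.03, a gene that also came close to the targets in footprints and mRNA. The other 5 lists had 0 genes past 2-fold in translational efficiency, including the 3 other lactate dehydrogenase genes, whose values lay between -0.61 and 0.37 per the authors' deposited table, and 3 glyoxylate and methylcitrate cycle genes above the level minimum. CIT3, a mitochondrial citrate synthase and the annotated neighbour of PDH1, lay below the level minimum there.

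In the double mutant 9.84% of all genes were lower in translational efficiency and 2.94% were higher. Of 15 other citrate cycle enzymes 3 were lower there, with KGD1 at -2.15 and SDH1 at -1.69 per the authors' deposited table. GRR1 at -3.02, PYC2 at -2.39, GLT1 at -2.03 and HAP2 at -1.52 per the authors' deposited table were the genes below the threshold in their lists. Of 5 glyoxylate and methylcitrate cycle genes 1 was higher, the acetyl-CoA synthetase ACS1 at 1.48 per the authors' deposited table.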

How the data were processed

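The authors deposited 6 tables of normalized log2 levels in footprints and mRNA and log2 changes in footprints, mRNA and translational efficiency, 1 for each mutant strain against a WT. Each deposited value pools 2 libraries. Base 2 was inferred from how large the values are, since no base is stated, and whether levels are per length is not given in the sources used here, so levels are not compared between genes. Per the submitters' processing notes, CASAVA 1.8, Bowtie2 2.6.0, TopHat2 2.1.0 and DESeq2 were used with build sacCer2, with no role or order given. In the dbp1delta experiment 4 WT level columns match no sample and were not used, but the deposited changes of both strains are against that WT.

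Strains of different tables were compared by difference of the deposited changes. Members and gene lists were chosen with earlier results of these data known. The planned limma or edgeR tests need values per library and were not run. Genes whose level averaged at least 50 in both assays entered, and 2-fold stands in for a test. The named genes are the 10 members, DED1, DBP1, up to 2 genes per list with the largest change in the measure described and the 5 genes most like CIT2. SAG1, FIT3, AQR1, RPL22B, CRC1, OAZ1, YCT1, BMH1 and CIT3 were named after their values were seen. Symbols were matched by locus tag for 5444 of 5446 frames. Genome positions of the reference annotation were used only to look for overlapping and neighbouring genes. Promoter motifs and sequences are not used here. Python 3.11.15, numpy 2.4.6 and pandas 2.3.3 were used, and the calculation was tested on simulated data.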

Additional observations from a re-analysis of the deposited data

How the results depend on the processing

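The values are pooled, so their precision is unknown, and a difference of rounded level columns departed from the deposited change by up to 0.0997. Of 27 counts of members past 2-fold, 15 of 21 were within 1.5 times with equal column totals, 26 of 27 with median centring, 16 of 18 from level columns, 26 of 27 with a level minimum of 200 and 27 of 27 with none, and no single value past 2-fold turned sign. An equal count can hold other genes: in ded1-cs translational efficiency it is 3 with equal column totals too, but as 0 higher and 3 lower. With equal column totals, the count in ded1-cs footprints went from 3 to 5 (ACO1 at -1.03 and RTG2 at -1.30 pass too), in ded1-cs_hcDBP1 against DED1-CS from 2 to 0 in footprints and from 0 to 1 in translational efficiency (RTG3 at -1.10), in ded1-cs_hcDBP1 against ded1-cs footprints from 1 to 0, in ded1-ts mRNA from 1 to 3 and in double mutant against dbp1delta footprints from 1 to 0. Median centring took ded1-cs_hcDBP1 against DED1-CS footprints from 2 to 1 (CIT2 at 0.93). The level columns took its translational efficiency from 0 to 1 (PDH1 at 1.05) and ded1-cs_hcDBP1 against ded1-cs footprints from 1 to 0. The higher level minimum took dbp1delta mRNA from 1 to 0 by leaving 8 members. Each scaling adds a constant to a column, which is how its counts moved. Equal column totals and level differences were not run for dbp1delta and the double mutant against their WT, nor the level difference without rescaling between these strains. Between these strains, equal column totals were taken from their level columns, and in the other comparisons from the deposited changes. By Pearson correlation PDH1 was rank 5 and not 1 among the genes most like CIT2, and centring leaves the distance as it is by construction. No paired analysis was possible because the deposited values pool the libraries of each strain and assay, and for the same reason no replicate was left out.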
